A study of Mus musculus with 3 samples.

Results

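Adipocyte lineage cells of mouse back skin were sought at E16.5 and at birth (P0) with a rule on 11 genes. A cell was taken if at least 2 of 6 adipocyte markers (Pparg, Cebpa, Plin1, Adipoq, Dgat2 and Cidec) were above 0 and all 5 genes of other skin cells were at 0, namely Cdh5 and Pecam1 of endothelium, Ptprc of immune cells, and Trp63 and Perp of epithelium. Members were thus chosen by the detection of these genes, whose values are a description here. The rule found 285 of 10273 cells, which are called members here. There were 162 members among 5208 cells of E16.5, or 3.11% (95% exact binomial interval 2.66% to 3.62%), and 123 among 5065 of P0, or 2.43% (2.02% to 2.89%). A unique molecular identifier (UMI) of Adipoq was found in 0 of 162 members at E16.5 and in 58 of 123 at P0, so that members with Adipoq came from P0 alone and 65 P0 members lacked it. The same rule took 7 of 5962 cells at E13.5, which are given as a count only.

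The study followed hair follicle formation in the dorsal skin of male C57BL/6 mice by droplet-based RNA sequencing of single cells, in which each captured transcript is read at its 3' end and counted once by its UMI. Skin of several animals was pooled into 1 library for each of the stages E13.5, E16.5 and P0, without a mutation or treatment in any group. The E16.5 skin was digested with 0.25% trypsin for 5 minutes and the P0 skin with 2 mg per ml collagenase IV for 30 minutes, and both were passed through a 40 µm strainer, which limits what is known of large fat-filled cells and means that stage and digestion cannot be told apart. With 1 library a stage there is no replicate, so no test was run, and all intervals cover counting error only.

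Adipocytes of the skin arise from mesenchymal precursors of the lower dermis. Pparg and Cebpa are the transcription factors that drive this differentiation and sustain each other, after which the cells take up fatty acids, join them into triglyceride and store it in a lipid droplet. Plin1 encodes perilipin, which coats the droplet and guards it from lipases, Cidec helps droplets fuse and grow, Dgat2 completes triglyceride, and Adipoq encodes the fat hormone adiponectin. Pparg and Cebpa are also transcribed outside this lineage.

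Promoters are shown for the 3 marker genes that all members with 4 or more markers shared beside Cebpa, and which were at or near 0 at E16.5. Each is the 250 bases before an annotated start in the RefSeq annotation of GRCm38.p6, 5' to 3' on the strand of the gene, and for Cidec the second of its listed starts is given. Capitals mark TTGCNNAA, a short form of the motif of CCAAT/enhancer-binding proteins, in Plin1 and Cidec, and CCAAT or its complement in Adipoq.
Adipoq, chr16:23146286-23146535, plus strand: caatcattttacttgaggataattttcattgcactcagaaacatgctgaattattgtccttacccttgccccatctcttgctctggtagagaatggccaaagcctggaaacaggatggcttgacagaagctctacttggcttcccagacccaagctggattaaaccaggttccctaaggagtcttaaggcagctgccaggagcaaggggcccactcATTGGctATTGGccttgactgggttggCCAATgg
Plin1, chr7:79732777-79733026, minus strand: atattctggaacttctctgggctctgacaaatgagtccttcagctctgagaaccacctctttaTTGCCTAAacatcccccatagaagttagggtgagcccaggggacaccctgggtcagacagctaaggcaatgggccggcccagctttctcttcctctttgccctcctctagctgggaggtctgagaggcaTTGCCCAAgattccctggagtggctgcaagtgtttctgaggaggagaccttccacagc
Cidec, chr6:113434765-113435014, minus strand: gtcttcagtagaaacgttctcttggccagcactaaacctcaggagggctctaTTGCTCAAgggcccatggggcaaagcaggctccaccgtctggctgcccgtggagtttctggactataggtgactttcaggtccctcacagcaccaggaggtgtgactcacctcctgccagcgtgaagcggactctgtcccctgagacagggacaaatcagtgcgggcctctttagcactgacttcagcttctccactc
Both strands were searched and overlapping matches were allowed. TTGCNNAA was found 2 times in the Plin1 window and 1 time in the Cidec window shown, while the first listed start of Cidec, whose window is not shown, had 0 matches of all 3 motifs searched, and 9.56% of all 32851 promoter windows of this length held at least 1 match. CCAAT was found 3 times in the Adipoq window, a number that 2.79% of all windows reached, and 33.8% held at least 1. AGGTCA, a core motif of nuclear receptors, was found in 0 of these 3 windows and in 14.0% of all windows. Of 23 genes looked up, 14 had a promoter in the table, with 21 windows in all. A match describes letters and not a bound site.

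The label of the members was first held against their markers. At E16.5 the members carried Pparg with Cebpa in 110 cells, Cebpa with Dgat2 in 21, Pparg with Dgat2 in 17, all 3 of these in 12 and Pparg with Plin1 in 2. Pparg and Cebpa had a median of 1 UMI per member, with highest counts of 5 and 4. Plin1 was found in 2 of 162 members with 1 UMI each, and Cidec and Adipoq in 0, which at this depth allows up to 2.25% of members with a UMI and sets no limit on the share that express the gene. Dgat2 was found in 50 of 162, with at most 2 UMIs. Plin1, Cidec and Adipoq were thus detected in few or no members at E16.5, against the label, and the E16.5 members are not called adipocytes here.

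Before thinning, having 2 markers was no rarer among cells that the rule shut out. At E16.5 162 of 2211 cells without an exclusion gene had 2 or more markers (7.33%, 6.28% to 8.49%), beside 222 of 2997 cells with an exclusion gene (7.41%, 6.5% to 8.4%). At P0 the shares were 5.89% (4.92% to 6.98%) and 10.95% (9.85% to 12.1%). The P0 shares compare cells at unlike depth, since keratinocytes and endothelial cells were deeper there, and the part of depth was not tested. Keratinocytes, taken as cells with at least 20 Krt14 UMIs and a Perp UMI, held a Cebpa UMI in 45.2% of cells at E16.5 and 63.4% at P0, and endothelial cells, taken as cells with UMIs of Cdh5 and Pecam1, held a Pparg UMI in 35.2% and 30.3%. Members were also deeper than the unselected cells without an exclusion gene, which are called other cells below (2049 at E16.5 and 1966 at P0), with medians of 12279.5 against 9709 UMIs per cell at E16.5 and 7695 against 5893.5 at P0. When every cell was thinned to a common depth just under that of the shallowest cell and the rule was applied again, 31 members were left at E16.5 and 77 at P0.

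**Figure D1:**
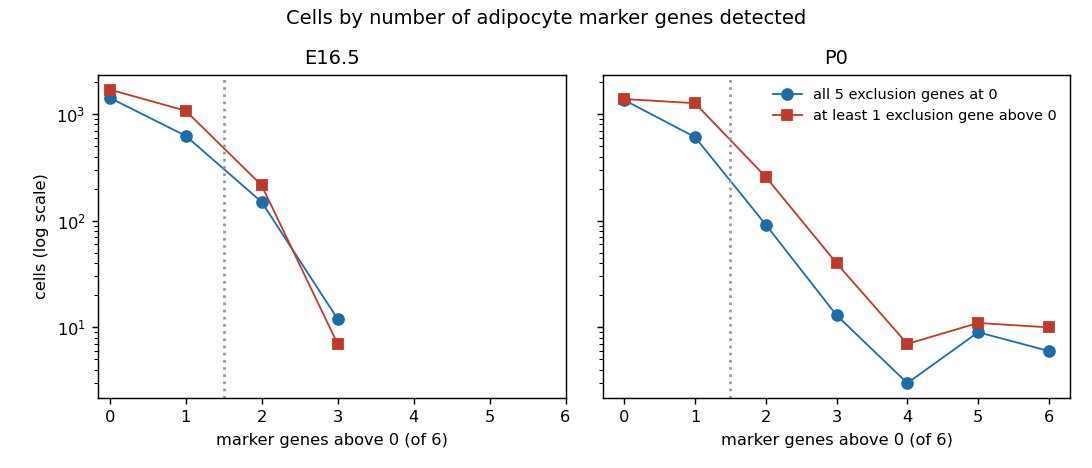
Cells by the number of the 6 adipocyte markers above 0 (x axis) at E16.5 and P0, with the number of cells on a log scale (y axis), for cells with all 5 exclusion genes at 0 (circles) and cells with at least 1 of them (squares). The dotted line is the threshold of the rule. At E16.5 the counts end at 3 markers, with 12 and 7 cells, and at P0 a tail of 18 and 28 cells had 4 to 6 markers.

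At P0 the number of markers set some members apart. With 2 markers there were 92 members, with 3 there were 13, with 4 there were 3, with 5 there were 9 and with 6 there were 6. Just outside the rule lay 609 cells with 1 marker and no exclusion gene. The 18 members with 4 or more markers, called marker-rich below, all held UMIs of Cebpa, Plin1, Adipoq and Cidec, and the group was formed after its values had been seen. Adipoq ranged from 2 to 164 UMIs per cell with a median of 67.5, Cidec from 1 to 58 UMIs per cell with a median of 11.5 and Plin1 from 1 to 15 UMIs per cell with a median of 4. These values chose the cells and are a description. The marker-rich members carry the adipocyte markers and are called adipocyte-like.

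An Adipoq UMI alone did not mark such a cell. Of the 40 members with Adipoq and 2 or 3 markers, 30 had 1 UMI of it, 9 had 2 to 6 and 1 had 29. After thinning, an Adipoq UMI was found in 2.41% (1.80% to 3.17%) of P0 cells with no exclusion gene and under 4 markers, in 2.16% (1.34% to 3.29%) of keratinocytes and in 2.62% (1.06% to 5.33%) of endothelial cells. Before thinning the shares were 4.15%, 6.59% and 5.24%, at median depths of 5937, 11255 and 10003 UMIs. The first share lay within the intervals of cell types that should lack adiponectin, so 1 UMI of Adipoq is not taken as a mark of an adipocyte-like cell. The source of these UMIs was not tested. At E16.5 an Adipoq UMI was found in 0 of 2211 cells with no exclusion gene, which allows up to 0.167%.

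Each library was clustered without the 11 rule genes, and E16.5 members were spread over 11 clusters and P0 members over 12. Of the 18 marker-rich members, 17 fell in a cluster of 45 cells led by Car3, Cfd, Hp, Trf and Retn (called the Car3 cluster), which made up 0.888% of the P0 library. The remaining member of this cluster had 3 markers, 29 Adipoq UMIs and 202 Fabp4 UMIs. A further 25 P0 members lay in a cluster of 212 cells led by Clec3b, Mfap5, Agtr2, Igfbp6 and Dlk1, and 48 E16.5 members lay in a cluster of 404 cells led by Agtr2, Ogn, Col12a1, Mgst1 and Thbs2. Each was picked as the cluster with the highest share of members at its stage outside the Car3 cluster, 11.9% at E16.5 and 11.8% at P0. Both are called the Agtr2 cluster of their stage, after the angiotensin receptor gene among their leading genes, without the claim that they hold the same cells. The name is that of the cluster, as at P0 15 of its 25 members held an Agtr2 UMI, beside 95 of its 104 other cells. A smaller E16.5 cluster of 135 cells was also led by Agtr2, after Angptl1, and held 13 members (9.63% of its cells, beside 11.9% in the larger one), which are counted with the remaining clusters below. The other 114 members at E16.5 and 79 at P0 were scattered over 10 clusters each, beside 1 marker-rich member outside the Car3 cluster. The clusters were chosen after they had been seen, and their leading genes are a description.

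Scrublet called 0 of 162 members at E16.5 and 1 of 123 at P0 as doublets, against 1.61% and 2.09% of all cells. The libraries shared 32 cell barcodes between E16.5 and P0, 44 between E13.5 and E16.5 and 41 between E13.5 and P0. Keratinocyte RNA was present at a like level in members and other cells. All 7 keratinocyte markers were detected, with summed levels of 435 and 471 counts per 1000000 UMIs of the group (CPM) at E16.5 and 421 and 444 at P0.

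Levels below are CPM of the UMIs of all cells in a group, with exact 95% Poisson intervals. A difference is the log2 ratio of CPM after 10 was added to each, for genes with at least 50 UMIs in both groups together, and a gene is called past the fold at a log2 difference of at least 1. The minimum counts both groups together, so a gene scarce in 1 group is compared only if the other holds enough UMIs. Shares of a list past the fold are thus partly fixed by this minimum. The rule genes are left out of the counts, which describe these libraries and test nothing.

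Of 11533 genes compared between E16.5 members and other cells, 4 (0.0347%) were higher past the fold and 51 (0.442%) lower. This count of 55 moved with the settings, to 535 with 1 CPM added, 651 with at least 3 markers, which left 12 members, and 1402 after thinning, which left 31. The 4 were Mgst1, a microsomal glutathione transferase, with a log2 difference of 1.42, Agtr2 with 1.17, Loxl1, which crosslinks elastin, with 1.03, and Lpl, the lipase that frees fatty acids from lipoproteins, with 1.02. Lpl stood at 104 CPM (90.5 to 118) against 46.1 (43.3 to 49.1), and 88 of 162 members held a UMI of it, with a highest count of 11. Agtr2 stood at 589 CPM (557 to 622) against 255 (249 to 262), and 126 of 162 members held it. With at least 3 markers Agtr2 reversed to -0.19 and Loxl1 to -0.046, and Lpl fell short of the fold at 0.34. In the GENCODE annotation of GRCm38 Lpl lies on the plus strand at chr8:68880491-68907448 and Agtr2 on the plus strand at chrX:21484544-21489164.

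The lists of lipid genes held little else at this stage. Lpl was the gene past the fold among 8 compared of fatty acid uptake, with a list median of 0.27 on the log2 scale beside -0.06 over all genes. In fatty acid synthesis 0 of 12 compared genes were past the fold, in triglyceride synthesis 0 of 5, in lipid droplet and lipolysis 0 of 12, in secreted adipokines 0 of 5 and in fatty acid oxidation 0 of 12. Fabp4, the fatty acid carrier of adipocytes and endothelium, reached 47.4 CPM (38.8 to 57.5) against 22.3 (20.4 to 24.4), and Cd36, a fatty acid receptor, 22.3 CPM (16.53 to 29.5) against 9.38 (8.12 to 10.8). Endothelial cells of the same library held Fabp4 at 1521 CPM. Car3, Cfd and Retn, which encode carbonic anhydrase 3, adipsin and resistin, had 0 UMIs in the 162 members, which allows up to 1.37 CPM each.

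What the E16.5 members did carry was matrix RNA, though those of the Agtr2 cluster carried no more than its other cells. There the 15 fibrillar matrix genes made up a median of 4.64% of UMIs per member and 5.07% per other cell, and Col1a1 differed by -0.11. The values that follow are against all other cells. The 15 fibrillar matrix genes had a median log2 difference of 0.51 with 0 past the fold. Col1a1 stood at 9661 CPM (9532 to 9792) against 6785 (6751 to 6820.5) and ranged from 2 to 424 UMIs per cell with a median of 123. The 10 imprinted growth genes, among them Igf2, H19 and Dlk1, had a median of 0.36, also with 0 past the fold. The lower genes were led by Dct, Ptgds, Cma1, Pmel and Cpa3, genes of melanocytes, Schwann cells and mast cells. Against other cells that held a Pdgfra UMI, 19 genes were past the fold, 2 of them higher.

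Among the E16.5 members, those of the Agtr2 cluster had higher levels of Fabp4 and Lpl, while the intervals of Cd36 overlapped. Fabp4 stood at 85.0 CPM (63.7 to 111) there and 32.5 (24.2 to 42.7) in the remaining clusters, Lpl at 185 (152 to 222) and 71.4 (58.8 to 85.9), and Cd36 at 35.3 (22.1 to 53.4) and 17.2 (11.3 to 25.0). Within the Agtr2 cluster the 48 members were also held against its 181 other cells. Of 5778 genes, 0 (0.0%) were higher past the fold and 12 (0.208%) lower, among them Ccl5, Eif2b4 and Npat. With 1 CPM added 9 were higher and 47 lower, and after thinning 130 of 3225 were higher and 423 lower. The log2 difference was 0.54 for Lpl and 0.30 for Fabp4.

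**Figure D2:**
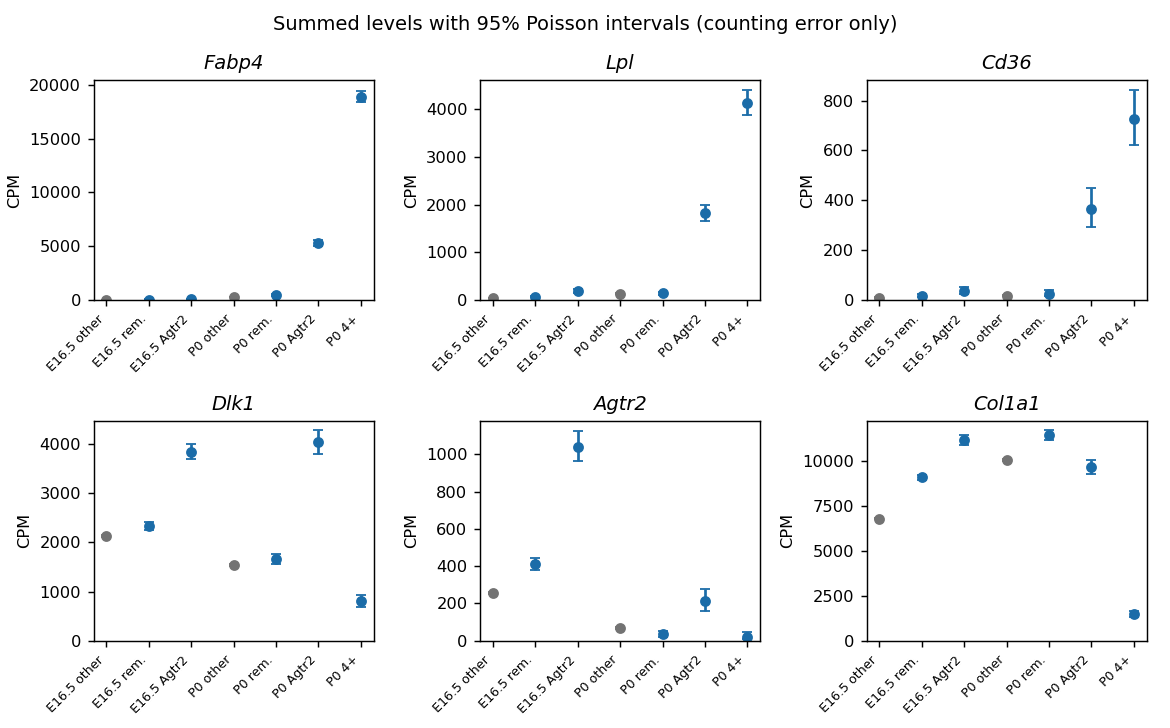
Summed levels of 6 genes outside the rule (y axes, CPM) in other cells (grey) and members (blue) of E16.5 and P0, with 95% Poisson intervals. Rem. stands for the remaining clusters, Agtr2 for the Agtr2 cluster and 4+ for marker-rich members. Fabp4, Lpl and Cd36 are highest in the marker-rich members and next in the P0 Agtr2 cluster, while Col1a1 is lowest in the marker-rich members.

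At P0 the members as a whole differed from the other cells in 279 of 10387 genes, with 198 (1.91%) higher and 81 (0.78%) lower past the fold. The excess of higher genes turned with the settings, to 359 higher and 620 lower with 1 CPM added, 562 and 1280 with at least 3 markers and 371 and 712 after thinning. The highest were Car3, Cfd, Trf, Hp, Retn, Mrap, Apoc1, Fabp4, Scd1 and Pnpla2, with log2 differences from 7.39 for Car3 to 4.32 for Pnpla2. The 18 marker-rich members weighed heavily here. Without them 87 genes were past the fold, 46 higher and 41 lower, and Dgat1, Lpin1, Dbi, Bscl2, Igf1 and Pde3b were among the genes that changed sign. The lowest genes included Cd74, Pf4 and C1qb of immune cells. Of 7 immune markers 6 were lower, with a summed level of 22.6 CPM in members and 241 in other cells.

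With against without Adipoq, 208 of 2827 genes (7.36%) were higher and 84 (2.97%) lower at P0. When the 40 members with Adipoq and 2 or 3 markers were held against the 65 without, 11 of 2249 genes (0.489%) were higher and 20 (0.889%) lower, and after thinning, with fewer cells and genes compared, 60 of 524 genes were higher and 32 lower. Among the 11 higher before thinning were Hp, Car3, Apoe and Trf, with log2 differences of 3.31, 3.18, 2.52 and 2.26. Car3 stood at 302 CPM (246 to 368) in the 40 members, yet 9 of 40 held a UMI of it and 1 of these held 72.

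The marker-rich members are therefore described against the 65 members without Adipoq. Here 352 of 2032 genes (17.3%) were higher and 445 (21.9%) lower past the fold, with a median log2 difference of -0.25 over all genes. The marker-rich members were deeper, with a median of 13192 against 7398 UMIs per cell. After thinning 219 of 432 compared genes were past the fold, 123 higher and 96 lower, so that fewer genes could be compared and the higher genes outnumbered the lower.

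Of the genes for uptake and binding of fatty acids 7 reached the minimum of UMIs, and these 7 were higher, with a list median of 3.49. Acsl1 reached it through the marker-rich members, so the tally is a description. Fabp4 ranged from 20 to 835 UMIs per cell with a median of 225.5 in the marker-rich members and from 0 to 185 UMIs per cell with a median of 1 in those without Adipoq. The ranges of cells overlapped, but the medians lay far apart, and the summed level was 18927 CPM (18382 to 19484) against 1678 (1569.7 to 1792). Lpl stood at 4127 CPM (3875 to 4391) against 551 (489.8 to 618) and Cd36 at 725 CPM (622 to 841) against 125 (96.4 to 159). Acsl1, which activates fatty acids to acyl-CoA, stood at 779 CPM (672 to 899) against 5.66 (1.17 to 16.6), a log2 difference of 5.65. Fabp5, a carrier shared with keratinocytes, differed by 1.36.

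Synthesis of fatty acids was represented by Scd1 and Scd2, desaturases that place a double bond in the chain. Scd1 reached the minimum of UMIs through the marker-rich members. Scd1 stood at 1471 CPM (1322 to 1632) against 5.66 (1.17 to 16.6) and Scd2 differed by 1.28. Scd1 was uneven, as 12 of 18 marker-rich members held it, from 0 to 80 UMIs per cell with a median of 3.5. Fasn, which builds the chain, did not reach the minimum of UMIs and stood at 24.9 CPM (9.12 to 54.1) against 20.8 (10.4 to 37.2), with intervals that overlapped. Acly, which supplies its building block, stood at 62.2 CPM (34.8 to 103) against 18.9 (9.05 to 34.7).

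Of the genes of triglyceride synthesis 4 reached the minimum of UMIs, and these 4 were higher. All 4 needed the UMIs of the marker-rich members to reach it, and Gpd1, Dgat1 and Pck1 were scarce without Adipoq. Agpat3, Gpat4 and Lpin1 did not reach it, so the tally is a description. Agpat2, which adds the second fatty acid, stood at 348 CPM (278 to 431) against 51.0 (33.6 to 74.2), and Dgat1, which like Dgat2 completes triglyceride, at 373 CPM (299.9 to 458) against 11.3 (4.16 to 24.7). Gpd1, which makes the glycerol phosphate backbone, stood at 423 CPM (345 to 513) against 1.89 (0.0478 to 10.5). Pck1, which feeds glycerol synthesis in fat, stood at 286 CPM (222 to 362) and had 0 UMIs in the members without Adipoq, where 3 UMIs would make 5.66 CPM.

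Of the genes of the droplet and of lipolysis 9 reached the minimum of UMIs, and 7 of these were higher. Pnpla2, Abhd5, Lipe and G0s2 needed the UMIs of the marker-rich members to reach it, so the tally is a description. Pnpla2, the first lipase of triglyceride breakdown, stood at 3236 CPM (3013 to 3471) against 43.4 (27.5 to 65.2), and Lipe, the lipase that acts next, at 431 CPM (352 to 522) against 7.55 (2.06 to 19.3). Both regulators of Pnpla2 were also high in the summed level of this group. Its activator Abhd5 stood at 572 CPM (480.4 to 676) against 39.6 (24.5 to 60.6) and its inhibitor G0s2 at 1106 CPM (978 to 1247) against 17.0 (7.77 to 32.3). Plin2, a droplet coat protein of most cell types, differed by 1.35, and Bscl2, the seipin gene of droplet assembly, by 3.20.

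Of the 6 secreted adipokines that reached the minimum of UMIs 5 were higher. Cfd, Retn and Agt needed the UMIs of the marker-rich members to reach it, so the tally is a description. Cfd ranged from 0 to 379 UMIs per cell with a median of 36 in the marker-rich members, against 0 to 1 in those without Adipoq, and stood at 6816 CPM (6491 to 7154) against 3.78 (0.457 to 13.6). Retn ranged from 0 to 137 UMIs per cell with a median of 2.5, and 14 of 18 held it. Apoe stood at 7823 CPM (7474 to 8184) against 281 (238 to 330.2), Agt, the precursor of angiotensin, at 928 CPM (811 to 1058) against 92.5 (68.4 to 122), and Rbp4, the retinol carrier, at 1139 CPM (1009 to 1282) against 230.3 (191 to 275). Car3, a cytosolic enzyme abundant in fat, ranged from 1 to 918 UMIs per cell with a median of 192.5. In the GENCODE annotation of GRCm38 Fabp4 lies on the minus strand at chr3:10204088-10208576, Car3 on the plus strand at chr3:14863512-14872523 and Cfd on the plus strand at chr10:79890853-79892655.

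Fatty acid oxidation was higher in 6 of the 7 genes that reached the minimum of UMIs, with smaller differences and a list median of 1.73. Acadl differed by 3.17. Among receptors, Ghr, the growth hormone receptor, stood at 758 CPM (652 to 876) against 41.5 (26.0 to 62.9), and Adipor2, a receptor of adiponectin, differed by 3.12. Igf1, a growth factor that growth hormone induces, stood at 820.4 CPM (710.1 to 943) against 43.4 (27.5 to 65.2). Pde3b, the phosphodiesterase through which insulin restrains lipolysis, differed by 4.19. The insulin-responsive glucose transporter Slc2a4 did not reach the minimum of UMIs. It stood at 37.3 CPM (17.1 to 70.8) against 3.78 (0.457 to 13.6), also higher, with intervals that did not overlap.

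The marker-rich members were low in genes of precursors and fibroblasts. Of 14 fibrillar matrix genes 10 were lower and 0 higher, with a list median of -2.13. Col1a1 stood at 1483 CPM (1334 to 1645) against 11457 (11171 to 11749), with a median of 15.5 UMIs per cell against 78. Of 5 preadipocyte genes compared 4 were lower. Pdgfra, a surface receptor of these precursors, stood at 8.29 CPM (1.0 to 29.9) against 117 (89.7 to 150.0) and Cd34 at 12.4 CPM (2.56 to 36.3) against 162 (129.9 to 201), and Thy1 and Ly6a differed by -4.05 and -2.78. Of 8 basement membrane genes, which mature fat cells lay down around themselves, Col15a1, Hspg2 and Nid2 were higher, by 1.91, 1.75 and 2.49, and 0 were lower.

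Imprinted growth genes, which are most active in the fetus, were split. Of 10 compared, Ndn, H19, Igf2, Dlk1 and Meg3 were lower, and Cdkn1c and Plagl1 higher. Dlk1, a surface protein of preadipocytes that inhibits adipogenesis, stood at 799.7 CPM (691 to 921) against 2839 (2698 to 2986). Cdkn1c, an inhibitor of cyclin-dependent kinases, stood at 4765 CPM (4494 to 5049) against 1131 (1042 to 1225). The 4 cell cycle genes compared (Ube2c, Cenpa, Cdk1 and Birc5) were lower, with a list median of -1.82.

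Genes of the dissociation response, which cells switch on while tissue is digested, were lower in 10 of 12 compared, with a list median of -1.70, as Junb at 215 CPM (161 to 283) against 1114 (1026 to 1207). Their part in the differences above was not tested. Of the markers of other cell types, those of keratinocytes summed to 348 CPM (278 to 431) in the marker-rich members and 408 (355 to 466) in those without Adipoq, and erythroid markers to 265 and 589 CPM. Muscle markers were at 0 for 6 of 6, Schwann markers for 5 of 5 and immune markers for 5 of 7, with a summed immune level of 12.4 CPM, and Rgs5 of pericytes had 0 UMIs. Of 5 sebocyte markers, from a lipid-filled cell of the skin gland, 3 were at 0, and Mgst1 made up 2813 of the summed 2830.0 CPM.

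The type of fat could be read from few genes, and Ucp1, the defining gene of brown fat, and Lep of white fat were not analysed here. Cidea, Dio2 and Otop1 of the brown fat list had 0 UMIs in the 18 marker-rich members, which allows up to 12.4 CPM each, and Cox7a1 and Kcnk3 stood at 53.9 CPM (28.7 to 92.1) each. Of the white fat list Retn stood at 1508 CPM (1357 to 1671). Hoxc8, Hoxc9 and Hoxc10, which also mark position along the trunk, stood at 62.2, 16.6 and 4.14 CPM, against 75.5, 43.4 and 17.0 in the members without Adipoq.

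**Figure D3:**
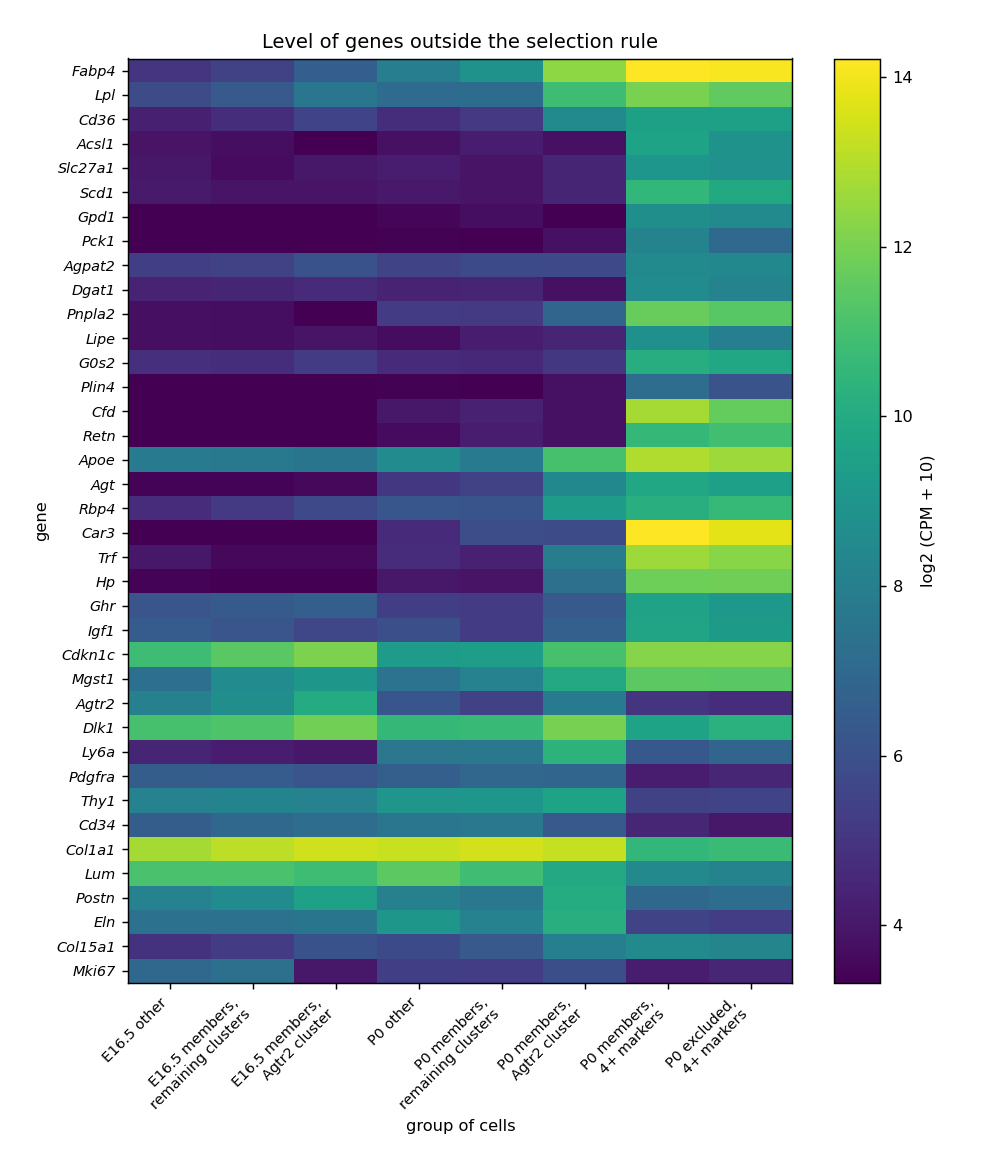
Level of 38 genes outside the rule (y axis, ordered by role from fatty acid uptake to matrix and cell cycle) in 8 groups of cells (x axis), as log2 of CPM plus 10. The last 2 columns are the marker-rich members and the marker-rich cells that the exclusion genes removed. Acsl1, Gpd1, Lipe, Cfd and Car3 are brighter in these columns than in the others, while Fabp4, Lpl, Cd36 and Apoe are also higher in the P0 members of the Agtr2 cluster.

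Lipid and matrix RNA were also weighed cell by cell, as the share of UMIs from 55 lipid and adipokine genes and from 15 fibrillar matrix genes. Each UMI is 1 transcript, so no correction for gene length applies. In the marker-rich members the lipid share ranged from 0.692% to 9.65% with a median of 5.38%, against a matrix median of 0.992%, and 17 of 18 had more lipid than matrix UMIs. In the E16.5 members the lipid share ran from 0.119% to 0.762% with a median of 0.281%, the matrix median was 4.38%, and 0 of 162 had more lipid than matrix UMIs. Other cells had lipid medians of 0.245% at E16.5 and 0.292% at P0, and 56 of 2049 and 76 of 1966 had more lipid than matrix UMIs. The highest lipid share of an E16.5 other cell was 2.84%, above that of any E16.5 member. The P0 members without Adipoq had medians of 0.311% and 5.20%, near those of the E16.5 members, and 4 of 65 had more lipid than matrix UMIs. The 1 marker-rich member below equality had 0.692% lipid and 4.95% matrix UMIs and 2 Adipoq UMIs.

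**Figure D4:**
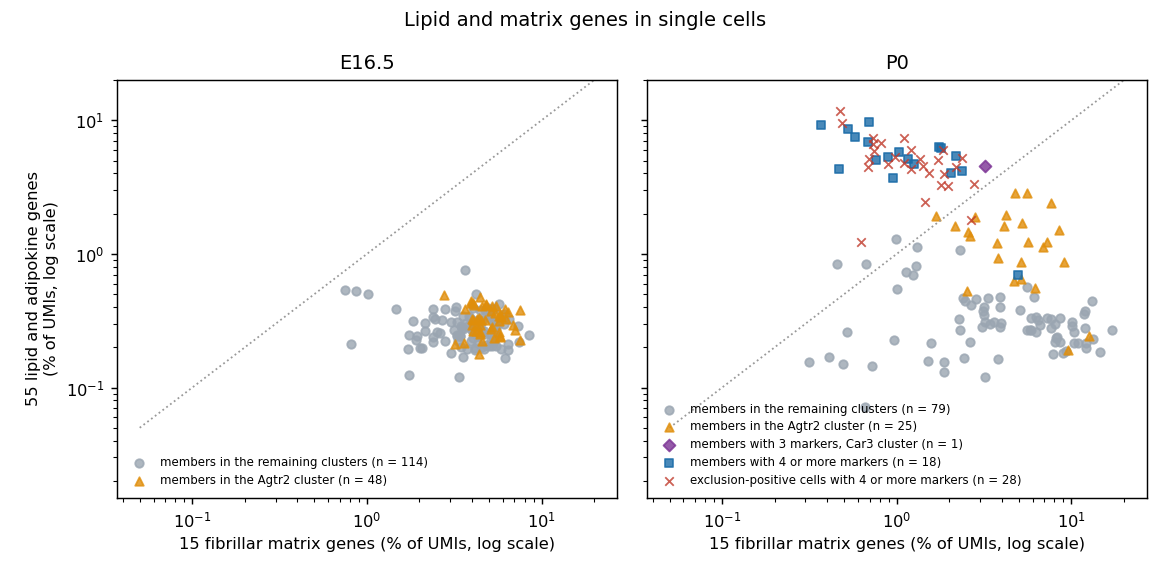
Share of UMIs from 55 lipid and adipokine genes (y axis, %) against the share from 15 fibrillar matrix genes (x axis, %) in each member at E16.5 and P0, and in the removed marker-rich cells at P0, on log scales. The dotted line marks equal shares. Of the marker-rich members 17 of 18 lie above it, and those of the P0 Agtr2 cluster, with a median lipid share of 1.24%, lie between them and most of the remaining members.

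The exclusion genes removed more marker-rich cells than they left. At P0 46 cells had 4 or more markers, of which 28 were shut out, 23 of them with a UMI of Perp, 11 of Trp63, 3 of Cdh5 and 1 of Pecam1. Perp was at 1 UMI in 12 of its 23 cells and Trp63 in 10 of its 11, and in 14 of the 28 cells the exclusion genes together made 1 UMI. The highest counts were 29 UMIs of Perp and 32 of the exclusion genes together. The removed cells were deeper than the marker-rich members, with a median of 16476.5 against 13192 UMIs per cell. Lmo1 was higher in them by 2.07, while Krt14, Krt5 and Krt15 differed by 0.58, 0.71 and 0.0018. The Car3 cluster held 26 of these cells beside its 18 members. Against the marker-rich members, 24 of 1761 genes (1.36%) were higher in the removed cells and 15 (0.852%) lower. Fabp4 and Car3 stood at 17424 and 13855 CPM in the removed cells and at 18927 and 19027 in the members, and 27 of 28 removed cells had more lipid than matrix UMIs. Mup20 stood at 1515 CPM (1407 to 1629) against 253 (193 to 325), but the major urinary protein genes are near-identical copies among which counts are uncertain. Pck1 stood at 120.3 CPM (91.4 to 156) against 286 (222 to 362). Scrublet called 0 of the 28 removed cells and 0 of the 18 members as doublets.

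The 65 P0 members without Adipoq differed from the other cells in 45 higher (0.439%) and 101 lower genes (0.986%) of 10247. Fabp4, Cd36 and Lpl were the 3 highest, with log2 differences of 2.74, 2.31 and 2.01, followed by Acta1 of muscle with 2.00, Rgs16, Rbp4, Gdf10, Agt, the chemokine Cxcl1 and Myl1 of muscle. Acta1 reversed to -1.07 after thinning. Of 15 dissociation response genes 3 were higher (Zfp36, Ier2 and Junb), with a list median of 0.62, and of 10 preadipocyte genes Ly6a was higher, by 1.46. In the lists 3 of 8 uptake genes and 2 of 7 adipokines were higher, while fatty acid synthesis (0 of 11), triglyceride synthesis (0 of 5), droplet and lipolysis (0 of 11) and oxidation (0 of 12) held 0 genes past the fold. The group was mixed. A member in it held 469 UMIs of melanocyte genes, where the next held 2, and Pmel stood at 453 CPM (398 to 514) over the group. Without this member 160 genes were past the fold. Pericyte markers summed to 1038 CPM and muscle markers to 109 CPM, beside 1033 and 72.4 in the other cells, and their part in the comparison was not tested.

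Fabp4 in the members outside the Car3 cluster lay chiefly in the Agtr2 cluster. The 25 P0 members of that cluster, 10 with and 15 without Adipoq, held Fabp4 from 0 to 185 UMIs per cell with a median of 49, and 20 of 25 had at least 20 UMIs. The 79 members of the remaining clusters held it from 0 to 50 UMIs per cell with a median of 1, and 5 of 79 reached 20 UMIs. An Adipoq UMI was found in 29 of these 79, in 10 of the 25 and in 4 of the 104 other cells of the Agtr2 cluster. Adipoq helped choose the members, so these shares are a description. Summed, Fabp4 stood at 5254 CPM (4975 to 5545) in the former and 459 (407 to 517) in the latter, Lpl at 1819 (1656 to 1993) and 134 (107 to 167), and Cd36 at 365 (295 to 448) and 24.9 (13.9 to 41.0). The other cells of the library stood at 243 (235 to 252), 129 (123 to 135) and 17.2 (14.95 to 19.6), so that Lpl and Cd36 in the remaining clusters overlapped them within counting error. Endothelial cells held Fabp4 at 6060 CPM and Cd36 at 1005 CPM at P0 and Lpl at 28.9 CPM. The part of endothelial RNA in these levels was not tested.

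Within the P0 Agtr2 cluster, the 25 members had 41 of 2427 genes (1.69%) higher and 143 (5.89%) lower than its 104 other cells. The highest were Gadd45g and Pim3 with 2.05 and 2.03, then Trf with 1.80, Acta1 with 1.79 and Lgals3 with 1.75. Fabp4 was higher by 1.66, at 5254 against 1655 CPM, and Apoe, Serpine2, Agt and Hba-a2 completed the 10 highest, with 1.65, 1.62, 1.60 and 1.60. Serpine2 and Hba-a2 reversed with at least 3 markers. Cd36 was higher by 1.38. Pnpla2 stood at 107 CPM (70.7 to 156) against 36.2 (23.8 to 52.7). Other lipid genes of the marker-rich members were low or at 0 in these 25, as Gpd1 with 0 UMIs, Acsl1 at 3.97 CPM (0.101 to 22.1), Scd1 at 11.9 (2.46 to 34.8) and Cfd at 3.97 (0.101 to 22.1). Fatty acid uptake held 2 higher genes of 5 compared, droplet and lipolysis 1 of 8, and in triglyceride synthesis 0 genes could be compared.

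The 10 lowest genes here were Igfbp6, Ptn, Sema3c, Tmeff2, Igfbp2, Mfap5, Nr2f2, Tmem100, Angptl1 and Mest, from -3.99 for Igfbp6 to -2.45 for Mest, and Igfbp6 and Mfap5 were leading genes of the cluster itself. Of 10 imprinted genes 8 were lower (Mest, Peg3, Ndn, H19, Igf2, Plagl1, Dlk1 and Meg3), with a list median of -1.47 beside -0.07 over all genes. Dlk1 stood at 4039 CPM (3795 to 4295) against 10327 (10098 to 10560.4) and H19 at 544 CPM (457 to 643) against 2468 (2356 to 2583). Of 4 adipogenic inhibitors Dlk1, Nr2f2 and Klf2 were lower, although Klf2 reversed to 0.64 after thinning. Cd34 and Pi16 differed by -1.95 and -2.00, and Agtr2 by -1.62. Col1a1 stood at 9655 CPM (9275 to 10046) against 16713 (16420.5 to 17008), still above the 1483 of the marker-rich members, and the intervals of Ly6a overlapped, at 1315 CPM (1177 to 1464) against 1387 (1304 to 1474). The members were deeper, with a median of 9390.0 against 6734.5 UMIs per cell, and after thinning 187 of 1501 compared genes were past the fold, 33 higher and 154 lower.

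Over the P0 members, Fabp4, Lpl, Cd36, Agt and Rbp4 shared an order, lowest in the remaining clusters, higher in the Agtr2 cluster and highest in the marker-rich members. Agt stood at 33.2 CPM (20.3 to 51.2), 329.6 (263 to 409) and 928 (811 to 1058), and Rbp4 at 61.4 (43.2 to 84.6), 619.6 (526 to 725) and 1139 (1009 to 1282), with no overlap of neighbouring intervals. Dlk1 was highest in the middle group, at 1665 CPM (1564 to 1771), 4039 (3795 to 4295) and 799.7 (691 to 921). These are groups within 1 library and not a time course.

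**Figure D5:**
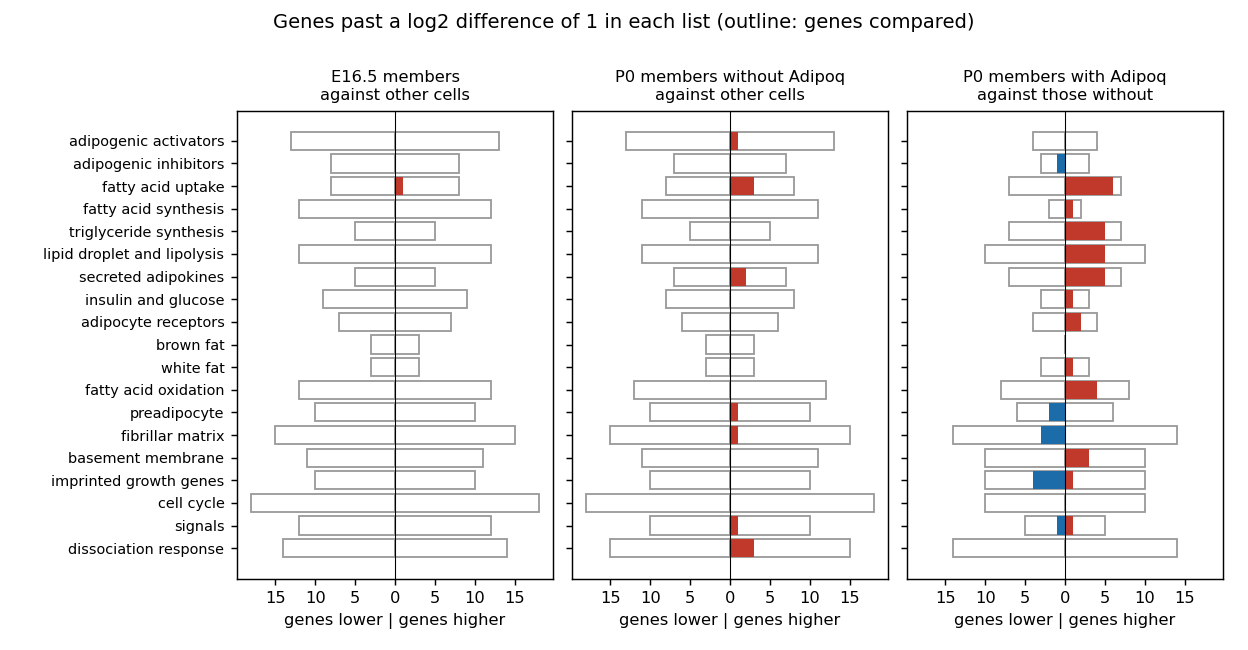
Genes of 19 lists past a log2 difference of 1 (red to the right for higher, blue to the left for lower) within the number compared (outline), for 3 comparisons. At E16.5 Lpl alone of these lists was past the fold, the P0 members without Adipoq show 3 uptake genes and 2 adipokines, and the members with Adipoq show 6 of 7 uptake genes.

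The 79 P0 members of the remaining clusters showed little of this pattern. Pnpla2 stood at 26.5 CPM (15.2 to 43.1) against 28.3 (25.4 to 31.4) in the other cells, Apoe at 207 CPM (173 to 247) against 369 (359 to 379.9), and Col1a1 at 11422 CPM (11154 to 11695) against 10062 (10006 to 10118). Their lipid share had a median of 0.288%, where the other cells had 0.292%. Acta2, Rgs5 and Des, genes of pericytes and muscle, stood at 697, 163 and 97.9 CPM, against 514, 203 and 68.4 in the other cells.

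Between the stages, members without Adipoq at P0 differed from those at E16.5 in 212 higher (3.55%) and 514 lower genes (8.62%) of 5965, and the other cells in 255 higher (2.09%) and 316 lower genes (2.59%) of 12196. Fabp4 was higher at P0 by 4.88 in the members and by 2.97 in the other cells, Lpl by 2.31 and 1.31, Cd36 by 2.06 and 0.49, and Rbp4 by 2.55 and 1.51. Klf5, Klf9 and Ebf1, transcription factors that act early in adipogenesis, differed by 1.49, 1.52 and 1.24 in the members and by 1.04, 1.43 and 0.71 in the other cells. Cebpb, another early factor, went the other way, by -0.89 in the members and -1.16 in the other cells. How far these differences differ has no replicate and was not tested.

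Of 10 imprinted genes compared between the stages 7 were lower at P0 in members and 4 in other cells, with 0 higher in either. Igf2 differed by -3.85 and -3.76, while Dlk1 differed by 0.038 in the members. Of 18 cell cycle genes 6 were lower in members and 5 in other cells, among them Mki67, Top2a and Mcm2 in both, with 0 higher. The dissociation response was higher in 11 of 13 and in 10 of 15 genes, with list medians of 1.80 and 1.28, and Hspa1a, a heat shock gene, differed by 4.003 and 4.38. Fosb of the same list went the other way, by -0.55 and -1.14. The part of this response in the differences between the stages was not tested. Haemoglobin genes were lower in 4 of 4 compared in each, with medians of -2.34 and -1.90. Pericyte markers were higher in 4 of 4 compared in the members and in 4 of 8 in the other cells. The higher Pmel and Dct of the members rested on the melanocyte-gene cell named above, without which 727 genes were past the fold.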

How the data were processed

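Single-cell RNA of dorsal skin was deposited as 1 table of 19165 genes and 16235 cells over the 3 libraries. Per the submitters' processing notes and the study's methods, reads were counted with Cell Ranger 2.2.0 on mm10, and genes seen in fewer than 3 cells and cells with fewer than 1750 genes were dropped. The deposited values are natural log values that the authors made from UMIs scaled to a total of 10000 in each cell, after adding 1. UMIs were recovered from them, and 48197283 of 48197283 values above 0 came out whole within 0.001. The E16.5 library held 66239195 UMIs and the P0 library 46599806, with no cell under 3453 and 3501.

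The members and gene lists were chosen with earlier results of these data known. Of 289 listed genes 284 were in the table, 2 of them by an older symbol, and the others were not analysed here. UMIs were summed per group of at least 10 cells. The listed genes and the 10 highest and 10 lowest of each comparison could be named, except 1 listed gene that is not reported here. Clusters came from Leiden at resolution 1 on 15 neighbours, 30 principal components and 2000 variable genes, without the 11 rule genes (scanpy 1.11.5, leidenalg 0.10.2, Python 3.11.15), and doublets, which were kept, from Scrublet at an expected rate of 0.06. Intervals came from scipy 1.17.1. The sums were tested on simulated data. Alternatives were other marker and UMI thresholds, 1 CPM added, equal weight per cell, thinning, and leaving out doublets or named cells.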

Additional observations from a re-analysis of the deposited data

How the results depend on the processing

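The comparisons formed from marker number, clusters or the exclusion genes, and the settings that left out cells or asked for 4 markers or 3 Adipoq UMIs, were chosen after seeing the data. The share of E16.5 cells that were members was 0.230% with at least 3 markers, 0% with at least 4, with or without the exclusion genes, 0.595% after thinning every cell to a common depth, 7.37% without the exclusion genes, 0.634% without Pparg and 2.38% without Dgat2. At P0 it was 0.612%, 0.355% (0.908% without the exclusion genes), 1.52%, 8.86% and 1.46%, and leaving out Dgat2 moved it less than its interval. The share of P0 members with Adipoq was 87.1% with at least 3 markers, 63.6% after thinning, 68.9% without Pparg and 18.7% with Adipoq counted from 3 UMIs, and at E16.5 it was 0% throughout.

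Genes past the fold between E16.5 members and other cells numbered 651 with at least 3 markers, 535 with 1 CPM added, 1402 after thinning and 19 against other cells with a Pdgfra UMI. With at least 3 markers Agtr2 reversed to -0.19 and Loxl1 to -0.046, and against cells with a Pdgfra UMI the Schwann list reversed to 0.22. Between P0 members and other cells the counts were 1842 with at least 3 markers, 979 with 1 CPM added, 1083 after thinning and 87 without the marker-rich members. Against cells with a Pdgfra UMI Rgs5 reversed to 0.92. Without the marker-rich members Bscl2 reversed to -0.044, Dbi to -0.095, Dgat1 to -0.046, Igf1 to -0.071, Lpin1 to -0.072 and Pde3b to -0.49.

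Members with against without Adipoq gave 502 genes from 20 UMIs and 31 without the marker-rich members, when Cdkn1c reversed to -0.11 and Etfb to -0.15. The stage comparison of members without Adipoq gave 1173 genes with 1 CPM added and 108 after thinning, and that of other cells 1881 with 1 CPM added. Members without Adipoq against other cells gave 1123 with 1 CPM added and 1594 after thinning, when Acta1 reversed to -1.07 and Igfbp2 to 0.78. Marker-rich members against those without Adipoq gave 1620 from 20 UMIs, where the white fat list reversed to -0.25, and 219 after thinning. Members with Adipoq and 2 or 3 markers against those without gave 47 with 1 CPM added, 130 from 20 UMIs and 92 of 524 after thinning. Removed against kept marker-rich cells gave 159 from 20 UMIs.

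Within the Agtr2 cluster at E16.5 there were 56 genes with 1 CPM added, 27 from 20 UMIs and 553 after thinning, when Ctdspl2 reversed to 0.10. At P0 there were 353 with at least 3 markers and 420 from 20 UMIs. With at least 3 markers Cenpa reversed to -0.11, Hba-a1 to -1.32, Hba-a2 to -0.73, Serpine2 to -2.77, Ube2c to -0.0034 and the erythroid list to -0.73, and after thinning Hba-a1 reversed to -0.87, Klf2 to 0.64, Metrnl to 0.018 and the erythroid list to -0.20. The cause of these changes was not tested. Of 3128 values of genes under the alternatives 2958 kept their side of the fold, 148 crossed it and 22 reversed, and of 1686 list medians 1568 kept their side, 114 crossed and 4 reversed.

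With 0 Adipoq members at E16.5, the split by Adipoq at E16.5 and the stage comparison of members with Adipoq could not be made. With at least 3 markers, P0 members without Adipoq (4 cells) and E16.5 members of the Agtr2 cluster (2 cells) fell under the minimum of 10 cells, and so did the removed marker-rich cells after thinning (8 cells). The depth of these groups, 241344 UMIs in the marker-rich members and 529719 in those without Adipoq, limits low genes, and 1 library per stage leaves the spread between animals unknown.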
